A study of Mus musculus with 18 samples.

Results

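Livers of mice kept under calorie restriction were compared directly with livers of mice given exercise, both on a low-fat diet, by their mature miRNAs. The members were the 3 LF+CR and the 3 LF+Ex libraries, 6 of the 18 in the series. The comparison ran over the 351 of 758 listed miRNAs that reached at least 5 RPM (reads of a library scaled to 1000000) in 3 or more of the 18 libraries. The remaining 407 did not enter the test. All mice were wild-type C57BL/6J, an inbred strain, began their regimen when 5 weeks old, and livers were taken at the age of 62 weeks. The abbreviations are taken to mean a low-fat (LF) or high-fat (HF) diet, calorie restriction (CR) and exercise (Ex); the labels do not spell them out, and they state neither how far intake was restricted nor what the exercise was. LF livers, on the same diet with neither regimen, are given beside the values. The HF+CR and HF+Ex libraries hold the same contrast on the other diet and share no library with it; each of these groups also has 3 libraries. Nothing in the labels ties the libraries of a group to separate animals, so the p-values reflect the spread among these samples alone, and that spread may be technical.

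miRNAs are short RNAs that guide Argonaute proteins to messenger RNAs, chiefly by pairing of the seed, bases 2 to 8 from the 5′ end, and lower their translation and stability. A hairpin precursor is cut into a 5p and a 3p arm, and several hairpins can share a transcript. In liver, hepatocyte miRNAs such as miR-122 dominate the pool, and several miRNAs are known to act on sterol, fatty acid and insulin signalling genes.

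The sequences below belong to some of the miRNAs on which the comparison turned and to their closest relatives; miR-1948, miR-143-3p and miR-1839-3p are named without theirs. They are RefSeq mature sequences (GRCm38.p6), 5′ to 3′, with the seed in capitals; 292 of the 351 tested miRNAs had an entry. The first group is that of miRNAs lower under restriction.
miR-671-5p: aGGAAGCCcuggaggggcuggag
miR-27b-3p: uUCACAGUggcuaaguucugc
miR-574-5p: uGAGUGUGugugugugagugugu
miR-1968-5p: uGCAGCUGuuaaggaugguggacu
The second is a family with 1 shared seed, of which miR-148b-3p alone passed the test. Counted from the 5′ end, miR-148b-3p differs from miR-148a-3p by C9U and U10C, and miR-152-3p differs from it by C9U, U10G and U20G (miR-148a-3p base first). miR-152-3p also lacks the last base, with a length of 21 against 22.
miR-148b-3p: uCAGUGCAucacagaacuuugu
miR-148a-3p: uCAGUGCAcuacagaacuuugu
miR-152-3p: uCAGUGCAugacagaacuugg
The third is the cluster of miR-183, miR-96 and miR-182, whose 3 members lay higher under restriction without passing the test.
miR-182-5p: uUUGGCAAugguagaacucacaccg
miR-96-5p: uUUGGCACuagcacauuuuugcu
miR-183-5p: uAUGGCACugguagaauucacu
The last pair comes from the miR-17-92 cluster and shares a seed; for both, the contrast of restriction with exercise differed between the diets.
miR-17-5p: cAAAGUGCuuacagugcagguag
miR-20a-5p: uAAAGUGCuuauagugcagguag

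The deposited values are RPM, a share of each library, so a fold is relative to the other miRNAs of that library. The libraries' read totals are not stated; if the smallest steps between values are single reads, they imply 5117501 to 7704379 reads on listed miRNAs in LF+CR and 7119683 to 10481218 reads in LF+Ex, so the exercised group was deeper on the whole; the part of depth in the results was not tested. The limit that a listed 0 allows, 3 reads by counting error alone, corresponds to at most 0.569 RPM in these 6 libraries. LF+CR 1 stood apart by its pancreatic miRNAs: the endocrine marker miR-375-3p was at 199 RPM there and at 1.44 to 9.51 RPM in the other 5 libraries. The labels' tissue was checked against the hepatocyte marker miR-122-5p, which made up 27.9% ± 2.02 of the listed RPM in LF+CR and 24.5% ± 3.78 in LF+Ex (SD, n = 3).

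Livers under calorie restriction had lower levels of 8 miRNAs and a higher level of 1 than exercised livers. The largest differences were those of the 2 arms of miR-1948, which were 5.29-fold and 6.23-fold higher in exercised livers. miR-671-5p, miR-27b-3p, miR-148b-3p, miR-574-5p, miR-1839-3p and miR-1968-5p were also lower. miR-143-3p was the single called miRNA with a higher level under restriction. Calls were made with limma on log2(RPM + 1) at a Benjamini-Hochberg adjusted p under 0.05, and every difference below is LF+CR minus LF+Ex on that log2 scale, which understates the change of low miRNAs. The 9 calls were 2.56% of the 351 miRNAs tested, with 0.285% higher and 2.28% lower. With 1 library left out the number of calls was 2 without LF+CR 1, 3 without LF+CR 2, 13 without LF+CR 3, 3 without LF+Ex 1, 7 without LF+Ex 2 and 2 without LF+Ex 3. At an unadjusted p under 0.05 there were 62 (17.7%), 9 of them higher (2.56%) and 53 lower (15.1%).

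The median difference over all 351 miRNAs was -0.13, with 218 (62.1%) below 0 and 133 above. Rescaling the libraries by median-of-ratios size factors moved that median by 0.15, to 0.02, with 164 below 0 and 187 above. It gave 7 calls, 3 higher and 4 lower, against 1 higher and 8 lower as deposited. Of these 7, 5 were among the 9: both miR-1948 arms, miR-148b-3p, miR-574-5p and miR-143-3p. With the LF+CR and LF+Ex libraries alone in the fit, 6 were called, 3 higher and 3 lower. The miR-1948 arms were the 2 of the 9 among them; miR-182-5p, miR-183-5p and miR-96-5p, higher, and miR-592-5p, lower, were the others. Groups that did not overlap were found for 91 miRNAs (25.9% of those tested), 21 with LF+CR higher (5.98%) and 70 with LF+CR lower (19.9%). All 9 called miRNAs were among them, as the choice by a small p in the same libraries favours.

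**Figure D1:**
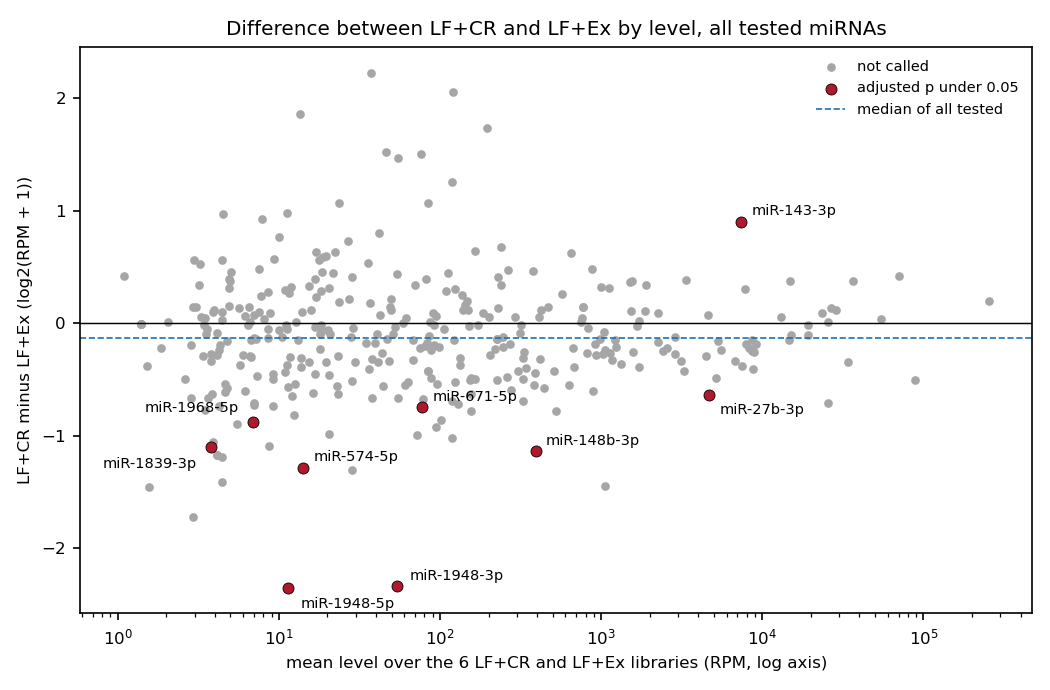
Difference between LF+CR and LF+Ex (vertical, log2(RPM + 1)) against the mean level over the 6 libraries (horizontal, RPM, log axis) for the 351 tested miRNAs; red points are the 9 called. The called miRNAs range from low levels (miR-1839-3p) to abundant ones (miR-143-3p), the miR-1948 arms lie lowest at -2.34 and -2.35, and the dashed median lies at -0.13.

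The miR-1948 hairpin (Mir1948) lies on chromosome 18 in an intron of Ttc39c, on its strand. Its 3p arm was at 13.1, 19.4 and 19.0 RPM in LF+CR 1 to 3 and at 102, 98.3 and 71.2 RPM in LF+Ex 1 to 3. The lowest exercised library thus lay far above the highest restricted one, and the LF libraries, at 44.2, 79.8 and 48.7 RPM, lay between the groups except LF 2, which reached into the exercised range. The mean level was 17.2 ± 3.52 RPM with restriction and 90.6 ± 16.96 RPM with exercise (SD, n = 3), 5.29-fold higher. The difference was -2.34 (SE 0.25, 95% interval -2.87 to -1.81, adjusted p = 3.09e-05).

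The 5p arm of miR-1948 gave a second reading of the same precursor. It was at 2.39, 2.52 and 4.55 RPM in LF+CR and at 20.9, 19.2 and 18.9 RPM in LF+Ex, against 9.07, 15.8 and 7.64 RPM in LF. Again the groups were far apart, with all LF libraries between them. The difference was -2.35 (SE 0.33, adjusted p = 0.000619). The low arm rested on 16 to 24 implied reads in the restricted libraries and on 154 to 207 in the exercised ones. The 5p arm held 11.5% to 19.4% of the hairpin's RPM in LF+CR and 16.3% to 21.0% in LF+Ex, ranges that overlap. Both calls held with each of the 6 libraries left out in turn and in every other alternative that tested them, with adjusted p of at most 0.0030 for the 3p arm and 0.0064 for the 5p arm.

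Each regimen was also set against LF. miR-1948-3p was at -1.66 in LF+CR minus LF (adjusted p = 0.00225) and at 0.68 in LF+Ex minus LF (adjusted p = 0.272). For miR-1948-5p the values were -1.49 (adjusted p = 0.0172) and 0.86 (adjusted p = 0.313). These comparisons share libraries with the direct one and are given side by side only. Across the tested miRNAs, 22 were called in LF+CR minus LF (6.27%) and 0 in LF+Ex minus LF by limma (0%; 41 at an unadjusted p under 0.05, 11.7%). In the latter, 1, miR-148a-3p, was called with voom weights and by limma after rescaling. The 22 calls in LF+CR minus LF were 2 higher and 20 lower, with a median over all miRNAs of -0.32. Rescaling moved that median to 0.02 and gave 15 calls, 8 higher and 7 lower. Of these 15, 9 were among the 22, so the 22 depend on the scaling. Of the 9 miRNAs called between LF+CR and LF+Ex, 6 were called in LF+CR minus LF.

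**Figure D2:**
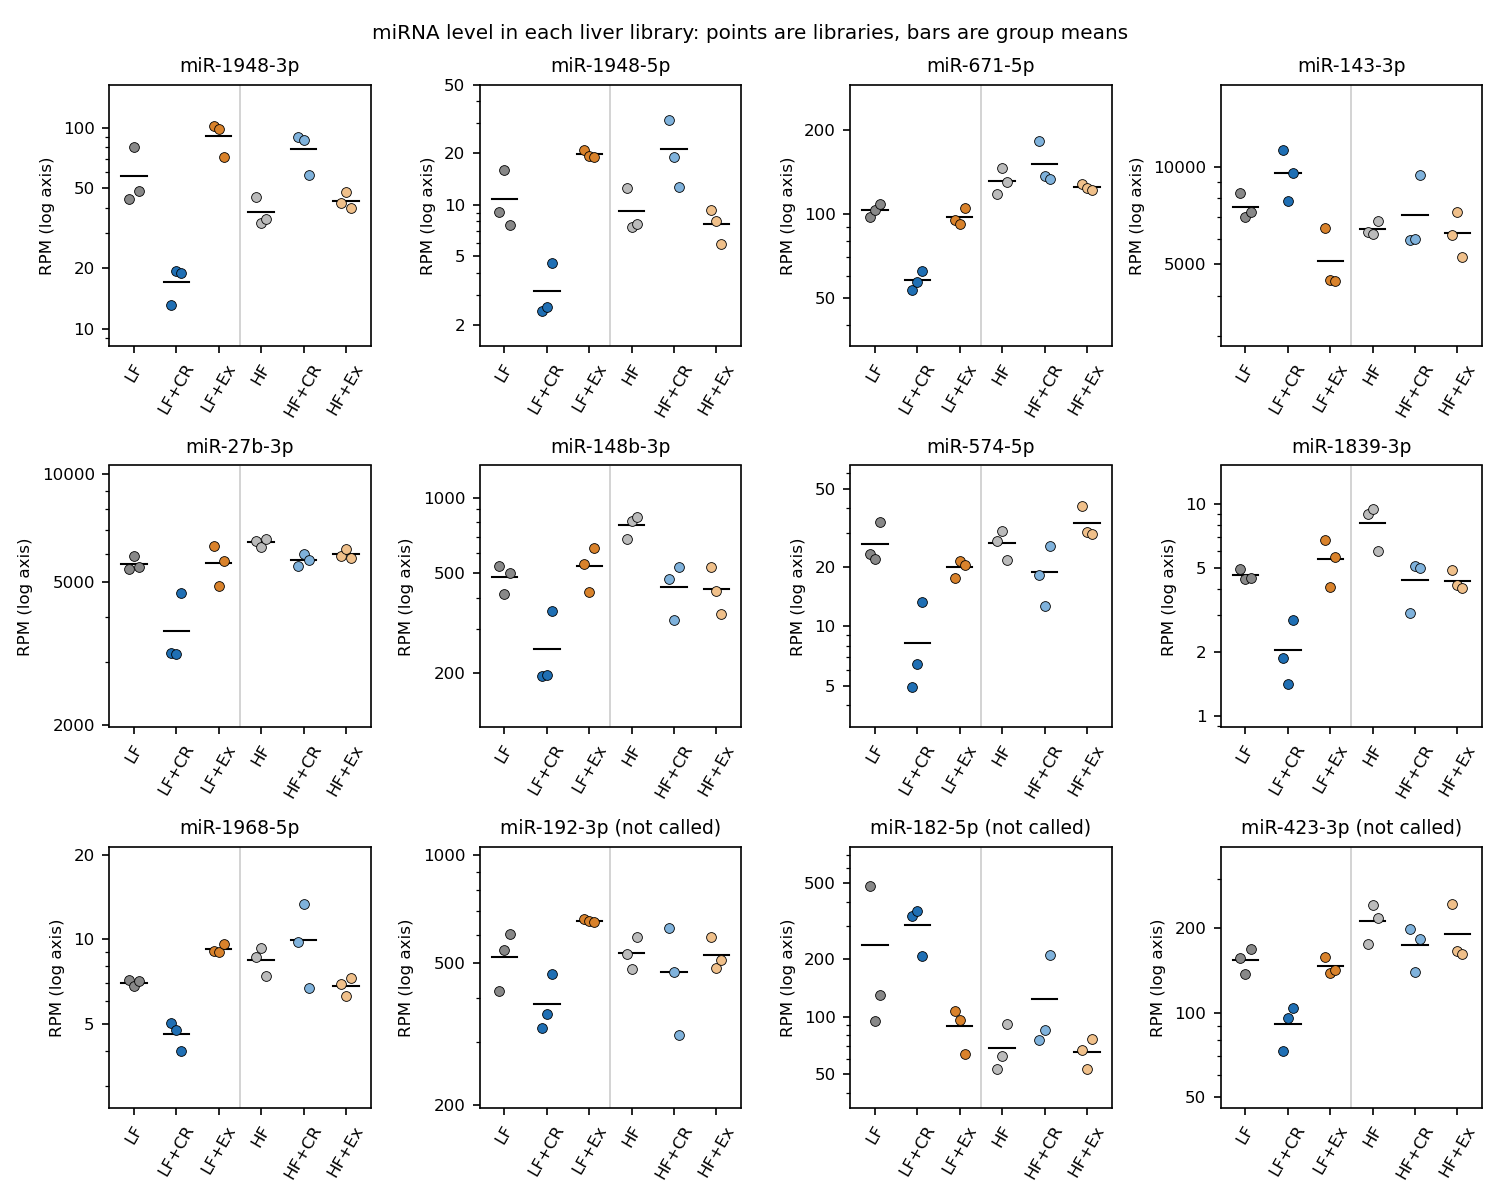
Level of the 9 called miRNAs and of the 3 next by p in each of the 18 libraries (RPM, log axis); each point is 1 library and each bar the mean of 3, with low-fat groups left of the line and high-fat groups right of it. The LF+CR and LF+Ex points do not overlap in any of the 12 panels, which the choice by a small p in these libraries favours. Over all 351 tested miRNAs 25.9% did not overlap. For both miR-1948 arms the order of CR and Ex on the high-fat side is the opposite. HF+CR minus HF+Ex was also above 0 for miR-671-5p (0.26), miR-1968-5p (0.44) and miR-148b-3p (0.02), all lower under restriction on the low-fat side.

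miR-671-5p, known for directing cleavage of the circular RNA Cdr1as, was at 53.5, 57.0 and 62.6 RPM in LF+CR and at 95.1, 91.7 and 105 RPM in LF+Ex. The exercised libraries lay close to LF (97.2, 104 and 108 RPM), and the spread within each group was small. The difference was -0.75 (SE 0.15, adjusted p = 0.0216). Its hairpin (Mir671, chromosome 5, 24592114 to 24592211, plus strand, GRCm38) lies in an exon of Chpf2 and opposite an exon of Smarcd3, and its 3p arm was at -0.65 (adjusted p = 0.205). The call was lost after rescaling (-0.59, adjusted p = 0.130), without LF+CR 1 (0.143), LF+CR 2 (0.0774), LF+Ex 1 (0.0681) or LF+Ex 3 (0.156).

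miR-27b-3p, which is known to act on lipid metabolism genes, was at 3174, 3147 and 4671 RPM in LF+CR and at 6326, 4887 and 5726 RPM in LF+Ex. LF+CR 3 came within reach of the lowest exercised library, while the other restricted libraries lay well below it; LF was at 5444 to 5914 RPM. The difference was -0.64 (SE 0.14, adjusted p = 0.0271). The hairpin (Mir27b, chromosome 13, 63300712 to 63300784, plus strand) lies in an exon of 2010111I01Rik, opposite an intron of Fancc. Its neighbours had values of the same sign, as 62.1% of all tested miRNAs did, and none passed: miR-23b-3p -0.26, miR-27b-5p -0.37 and miR-24-3p -0.27. After rescaling they were at -0.10, -0.22 and -0.11. The 5p arms miR-24-1-5p and miR-24-2-5p are listed by locus but miR-24-3p is not, so its value may not be of this cluster alone. miR-27a-3p, the relative with the same seed that differs from it by C19U (miR-27a-3p base first), was at -0.21 (adjusted p = 0.801). The miR-27b-3p call was lost after rescaling (-0.48, adjusted p = 0.191), without LF+CR 1 (0.143), LF+CR 2 (0.175), LF+Ex 1 (0.171) or LF+Ex 3 (0.156).

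miR-148b-3p was at 194, 197 and 354 RPM in LF+CR and at 547, 421 and 634 RPM in LF+Ex, with LF at 535, 413 and 502 RPM. LF+CR 3 was again the highest restricted library, and restricted livers lay below both other groups. The difference was -1.14 (SE 0.26, adjusted p = 0.0271). It was lost without LF+CR 1 (0.143), LF+CR 2 (0.175), LF+Ex 1 (0.126) or LF+Ex 3 (0.156). The hairpin (Mir148b, chromosome 15, 103285125 to 103285221, plus strand) lies in an intron of Copz1, and its 5p arm was at -0.56 (adjusted p = 0.265).

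The abundant relative miR-148a-3p, a hepatocyte miRNA known to lower the LDL receptor, was at 15001, 16068 and 28788 RPM in LF+CR and at 34248, 31348 and 28262 RPM in LF+Ex. LF+CR 3 lay within the exercised range and the other restricted libraries within the LF range of 12748 to 18107 RPM, so the groups overlapped. Its difference was -0.71 (SE 0.22, adjusted p = 0.104). The third member, miR-152-3p, was at 0.34 (adjusted p = 0.402). miR-148b-3p made up 1.08% to 1.13% of the summed RPM of the 3 in LF+CR and 1.27% to 2.05% in LF+Ex, so these shares did not overlap. The choice of miR-148b-3p by a small p in the same libraries favours such a gap. The labels do not say how reads matching several of these near-identical miRNAs were counted, and the part of such reads in the result was not tested.

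miR-574-5p, whose sequence is mostly a GU repeat, was at 4.91, 6.46 and 13.3 RPM in LF+CR and at 17.7, 21.6 and 20.6 RPM in LF+Ex, with LF at 21.96 to 33.8 RPM. All restricted libraries were below all others on this diet, LF+CR 3 least so. The difference was -1.28 (SE 0.31, adjusted p = 0.0405). The 3p arm of the hairpin (Mir574, chromosome 5, 64970318 to 64970395, plus strand, in an intron of Fam114a1) was at -0.99 (adjusted p = 0.167). The 5p call held without LF+CR 3 (adjusted p = 0.00282) and was lost with any other of the 6 left out, at 0.231 without LF+CR 1, 0.201 without LF+CR 2, and 0.119, 0.123 and 0.156 without LF+Ex 1 to 3.

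The 2 remaining calls were of rare miRNAs. miR-1968-5p was at 5.04, 4.73 and 3.99 RPM in LF+CR and at 9.10, 8.98 and 9.62 RPM in LF+Ex, on 21 to 40 and 67 to 97 implied reads. LF lay between, at 6.81 to 7.13 RPM, with no overlap among the 3 groups. The difference was -0.88 (SE 0.22, adjusted p = 0.0426), and the call was lost with any 1 of the 6 libraries left out (adjusted p 0.0828 to 0.175) and after rescaling (adjusted p = 0.180). Its hairpin (Mir1968, chromosome 8, 13189031 to 13189098, minus strand) lies in an intron of Grtp1.

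miR-1839-3p was at 1.89, 1.42 and 2.85 RPM in LF+CR, on 9 to 15 implied reads, and at 6.79, 4.08 and 5.65 RPM in LF+Ex, on 44 to 50. LF, at 4.45 to 4.92 RPM, lay within the exercised range. The difference was -1.10 (SE 0.27, adjusted p = 0.0408), lost after rescaling (0.0571) and without LF+CR 1 (0.143), LF+CR 2 (0.226), LF+Ex 1 (0.197) or LF+Ex 3 (0.156). Mir1839 (chromosome 7, 81529916 to 81529988, plus strand) is also annotated as a small Cajal body RNA and overlaps an exon of the long noncoding RNA gene 2900076A07Rik, so reads of these cannot be told apart. The 5p arm held 97.6% to 99.4% of the hairpin's RPM in the 6 libraries and was at -0.48 (adjusted p = 0.191).

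Next by p among the lower miRNAs, without passing, were miR-192-3p and miR-423-3p. miR-192-3p, from the p53-responsive and hepatocyte-enriched miR-192 hairpin (Mir192, chromosome 19, 6264844 to 6264932, plus strand), was at 328, 360 and 467 RPM in LF+CR and at 662, 654 and 651 RPM in LF+Ex. The exercised libraries nearly coincided, above all LF libraries (416 to 601 RPM). Its difference was -0.78 (SE 0.22, adjusted p = 0.103). miR-423-3p was at 73.1, 95.6 and 104 RPM in LF+CR and at 158, 138 and 142 RPM in LF+Ex (difference -0.69, SE 0.20, adjusted p = 0.104).

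**Figure D3:**
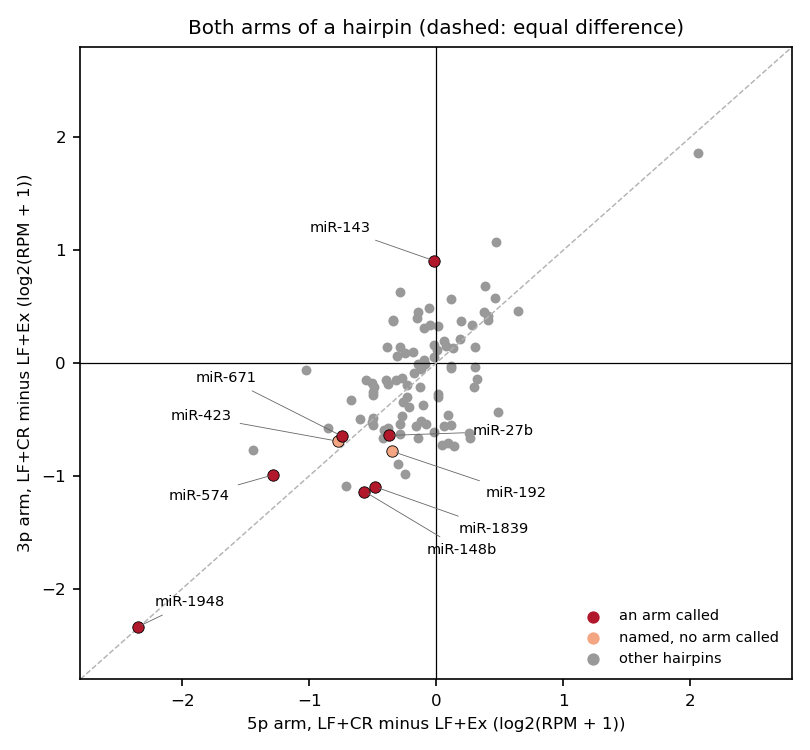
Difference LF+CR minus LF+Ex (log2(RPM + 1)) of the 5p arm (horizontal) and the 3p arm (vertical) for the 100 hairpins with both arms tested; the dashed line marks equal differences. The arms of miR-1948, miR-574, miR-671 and miR-423 lie near the line at negative values, while miR-143 lies at -0.02 for the 5p arm and 0.91 for the 3p arm.

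Over the 100 hairpins with both arms tested, the difference had the same sign in 67, with Pearson's r of 0.67 and Spearman's rho of 0.49. This is across hairpins in the same libraries, which are not independent replicates. The arms of a hairpin share their precursor and the libraries, so the concordance of the miR-1948 and miR-574 arms is a second reading and not a second sample. The point at the upper right, picked after its values were seen, is miR-582, with 2.06 for the 5p arm and 1.86 for the 3p arm; the 5p arm was at 181, 209 and 131 RPM in LF+CR and at 13.7, 28.1 and 163 RPM in LF+Ex, so LF+Ex 3 lay within the restricted range (adjusted p = 0.330).

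The single called miRNA with a higher level under restriction than with exercise, miR-143-3p, is known from smooth muscle and mural cells and, when overexpressed in liver, for impairing insulin signalling. It was at 11274, 7837 and 9614 RPM in LF+CR and at 6470, 4484 and 4454 RPM in LF+Ex. LF lay between, at 8322, 7025 and 7279 RPM, overlapping the restricted group only. The mean was 1.86-fold higher with restriction than with exercise, a difference of 0.91 (SE 0.20, adjusted p = 0.0271). The call was lost without LF+CR 1 (0.143), LF+Ex 2 (0.108) or LF+Ex 3 (0.156), and it held after rescaling (1.07, adjusted p = 0.0032). Mir143 lies on chromosome 18, on the minus strand, outside the annotated genes.

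The miRNAs made with miR-143-3p did not pass. Its own difference from LF did not pass in either regimen, at 0.33 in LF+CR (adjusted p = 0.302) and at -0.57 in LF+Ex (adjusted p = 0.237). Its 5p arm was at -0.02 (0.14 after rescaling), and the miR-145a arms of the same cluster were at 0.40 for the 3p arm (adjusted p = 0.315) and at -0.15 for the 5p arm (0.01 after rescaling). Of the stellate and mural cell marker list, 9 of 9 were tested, with 1 called, miR-143-3p itself, and a median of -0.02 (0.14 after rescaling). The other defining members miR-199a-3p, miR-199a-5p and miR-214-3p were at 0.14, -0.38 and -1.09. The list summed to 10807 to 14937 RPM in LF+CR and to 7716 to 10222 RPM in LF+Ex, mostly miR-143-3p. The part of these cells in the miR-143-3p result was not tested, and fewer cells of a type and less RNA per cell cannot be told apart in bulk liver.

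The cluster of miR-183, miR-96 and miR-182 on chromosome 6, first known from sensory organs and known in liver as a target of the sterol factor SREBP2, lay higher under restriction without passing. miR-182-5p (Mir182, 30165918 to 30165992, minus strand) was at 335, 359 and 209 RPM in LF+CR and at 108, 96.5 and 63.8 RPM in LF+Ex. Restricted livers lay above exercised ones throughout, but LF ran from 95.4 to 486 RPM across both groups. The difference was 1.74 (SE 0.50, adjusted p = 0.103). miR-183-5p was at 1.51 (adjusted p = 0.147) and miR-96-5p at 1.26 (adjusted p = 0.187), and neither overlapped between the groups. miR-182-5p passed after rescaling (1.90, adjusted p = 0.0350), and when just LF+CR and LF+Ex entered the fit all 3 passed (adjusted p 0.0250 for miR-182-5p and miR-96-5p and 0.0286 for miR-183-5p).

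These 3 also stand on the list of biliary and other epithelial markers, of which 11 of 13 were tested, none was called and the median was 0.31. The miR-200 members of that list were at 0.31 for miR-200a-3p, 0.12 for miR-200b-3p, 0.45 for miR-200c-3p, -0.02 for miR-141-3p and -0.20 for miR-429-3p. The list summed to 4771 to 6154 RPM in LF+CR and to 3732 to 6950 RPM in LF+Ex, ranges that overlap. The part of epithelial cells in the miR-182-5p values was not tested.

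None of the 6 most abundant miRNAs passed the test. miR-122-5p was at 0.20 (95% interval -0.08 to 0.48), miR-194-5p at 0.04 and miR-192-5p at -0.35 (adjusted p = 0.239). miR-21a-5p, a miRNA of growth and injury, took 7.58% ± 1.42 of the listed RPM in LF+CR and 10.7% ± 0.907 in LF+Ex, with a difference of -0.50 (adjusted p = 0.293). The groups did not overlap for miR-21a-5p and miR-192-5p, both lower with restriction, nor for miR-29a-3p and miR-29c-3p, both higher. Over all tested miRNAs 25.9% did not overlap, 19.9% with LF+CR lower and 5.98% with LF+CR higher.

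Of the miR-29 family, which represses collagen and other matrix genes, 3 members were tested, 2 above 0 and 1 below, and none was called. miR-29a-3p was at 83538, 89703 and 70139 RPM in LF+CR and at 61277, 58035 and 62066 RPM in LF+Ex, 8.36% ± 1.03 and 6.25% ± 0.237 of the listed RPM. The lowest restricted library lay above the highest exercised one and above all LF libraries (52695 to 59998 RPM). The difference was 0.42 (SE 0.13, adjusted p = 0.104), and it passed after rescaling (0.58, adjusted p = 0.0451) and without LF+CR 3 (0.0415). miR-29c-3p, which differs from miR-29a-3p by C10U (miR-29a-3p base first), was at 0.37 (adjusted p = 0.194), and miR-29b-3p was at -0.01 (0.15 after rescaling).

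By function, the lists gave few calls, and each count stands against the 2.56% called over all miRNAs and the median of -0.13. Of 21 tested lipid and sterol regulators, 1 was called, miR-27b-3p, lower; the median was -0.17 with 7 above 0 and 14 below, and -0.01 with 10 above and 11 below after rescaling. miR-33-5p, the Srebf2 intron miRNA that represses cholesterol export, was at 0.01 (adjusted p = 0.991). miR-34a-5p, a p53 target that lowers Sirt1, was at 387, 470 and 814 RPM in LF+CR and at 1004, 1197 and 2483 RPM in LF+Ex. The groups did not overlap, but the exercised libraries were spread and the difference of -1.44 (SE 0.50) did not pass (adjusted p = 0.143).

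Of 21 tested insulin and glucose regulators, 1 was called, miR-143-3p, higher; the median was -0.14 (0.02 after rescaling). miR-103-3p and miR-107-3p, which act on caveolin and insulin sensitivity, were at -0.19 and -0.29, and miR-802-5p, raised in obese liver, was at 0.39 (adjusted p 0.417 to 0.572 for these 3). The same miR-143-3p was the 1 call among 13 tested p53 and senescence miRNAs (median -0.24, or -0.08 after rescaling). Of the miR-148 and miR-152 family 6 arms were tested and 1 was called, miR-148b-3p (median -0.24, or -0.09 after rescaling), and of the miR-23, miR-27 and miR-24 clusters 7 were tested and 1 was called, miR-27b-3p (median -0.26, or -0.10 after rescaling). The hepatocyte markers, 7 tested, had no call and a median of 0.20 (0.36 after rescaling). No member was called in the miR-34 family (2 tested, median -0.61, or -0.45 after rescaling), the pair of miR-103 and miR-107 (median -0.24, or -0.08), the let-7 family (9 tested, median -0.10, or 0.06), the miR-30 family (5, median 0.06, or 0.22), the miR-378 family (4, median -0.21, or -0.05), the miR-15 and miR-16 family (6, median -0.26, or -0.09) or the miR-17-92 clusters (10, median -0.21, or -0.05). Unadjusted p was under 0.05 in 2 of the 9 let-7 members, let-7d-5p at -0.41 and miR-98-5p at -0.42, both lower, where 15.1% of all tested miRNAs were lower at that level.

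The Dlk1-Dio3 imprinted cluster had 13 of 42 members tested, none called, and a median of 0.10 (0.25 after rescaling). Of the 7 tested members of the Sfmbt2 intron cluster none was called. They are 2 distinct measurements, 5 miR-466 forms with the same value of -0.01 (0.09 after rescaling) and miR-669o-3p with miR-669a-3p, equal in every library, at -1.17 (adjusted p = 0.143). Of 8 tested inflammation and stress miRNAs, none was called and 7 lay below 0 (median -0.37, or -0.23 after rescaling).

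**Figure D4:**
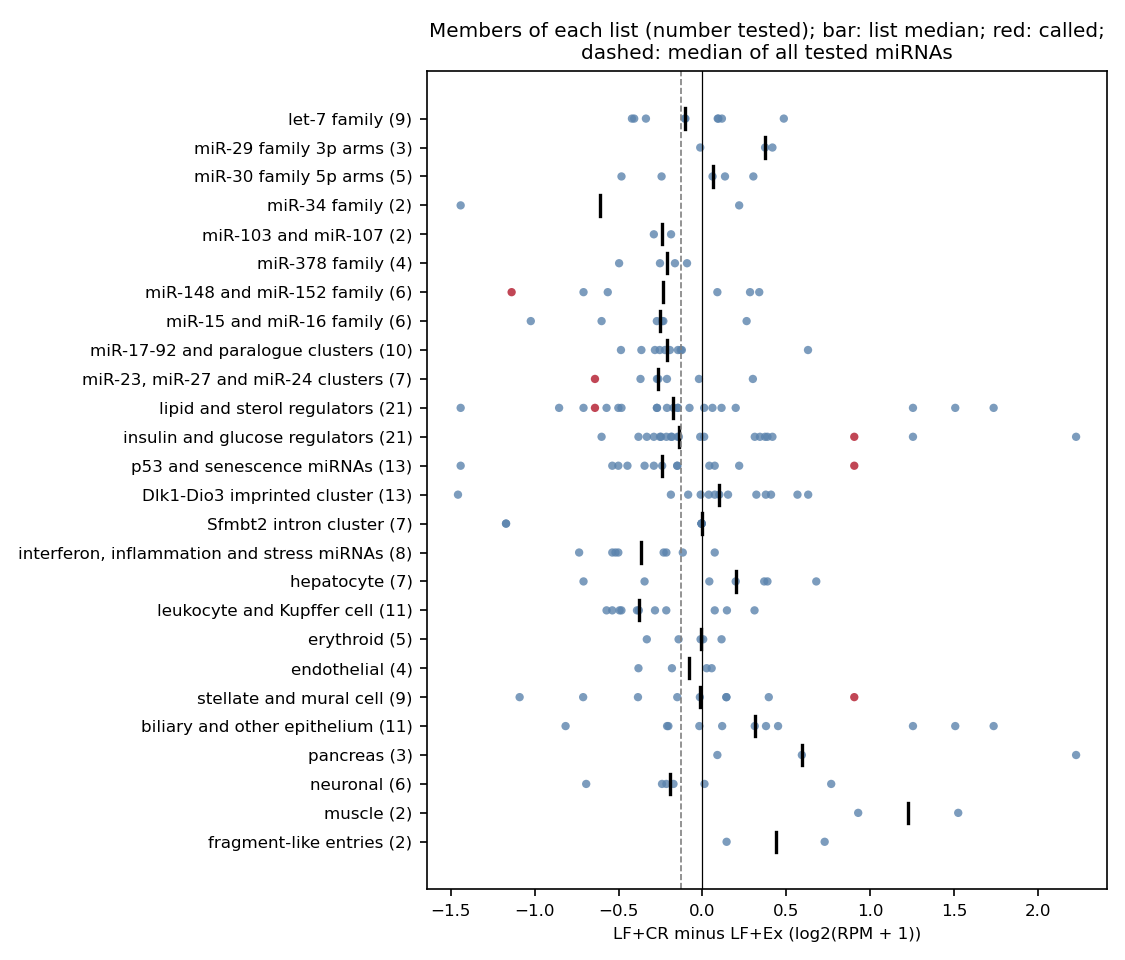
Differences LF+CR minus LF+Ex (log2(RPM + 1)) of the tested members of each list with at least 2 tested; the number tested is in parentheses, black bars are list medians and red points the called miRNAs. Most medians lie near the dashed median of all miRNAs (-0.13), and those of the let-7 family, insulin and glucose, Sfmbt2, erythroid, endothelial, and stellate and mural cell lists turn from below to above 0 after rescaling.

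Marker lists of other cells gave no call apart from miR-143-3p. Leukocyte and Kupffer cell miRNAs, 11 of 11 tested, had a median of -0.38 with 8 below 0 (-0.23 after rescaling). They summed to 2849 to 3585 RPM in LF+CR and to 3608 to 4796 RPM in LF+Ex, without overlap. In LF they summed to 2909 to 8694 RPM, which reached into both ranges. Their defining member miR-223-3p was at -0.57 (adjusted p = 0.550). The 3 above 0 were miR-150-5p at 0.31, miR-511-3p at 0.15 and miR-155-5p at 0.07. Neuronal miRNAs, 6 of 7 tested, summed to 323 to 373 RPM in LF+CR and to 448 to 639 RPM in LF+Ex, also without overlap. In LF they summed to 496 to 723 RPM. Sums of other lists, such as the p53 and senescence miRNAs, did not overlap between LF+CR and LF+Ex either. The neuronal members went both ways, with 4 below 0 and 2 above (median -0.19, or -0.06 after rescaling). The 2 above were miR-9-5p at 0.77 and miR-129-5p at 0.01, and the lowest was miR-137-3p at -0.69. The part of these cells in the 8 lower miRNAs was not tested.

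Erythroid miRNAs had a median of -0.01 and endothelial ones of -0.08, with 0.12 and 0.08 after rescaling. Pancreatic miRNAs summed to 430 RPM in LF+CR 1 and to 83.5 to 118 RPM in the other 5 libraries (3 of 6 tested, median 0.59). Without that library the 2 miR-1948 arms alone were called. The same held without LF+Ex 3, and 3 miRNAs were called without LF+CR 2 or without LF+Ex 1. Muscle miRNAs summed to 25.4 to 148 RPM in LF+CR and to 13.95 to 51.1 RPM in LF+Ex (2 tested, median 1.23). The fragment-like entries, kept as a sign of RNA quality, summed to 38.4 to 41.4 RPM in LF+CR and to 17.4 to 43.3 RPM in LF+Ex, with miR-2137 and miR-1186b at 0 in all 6; their part in the results was not tested.

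On the high-fat diet the same contrast, HF+CR minus HF+Ex, gave other calls. It called 8 miRNAs (2.28%), 5 higher (1.42%) and 3 lower (0.855%), and 0 of the 9 called on the low-fat diet were among them. Higher in HF+CR were miR-20a-5p (1.16), miR-17-5p (0.94), miR-17-3p (0.73), miR-148a-3p (0.99) and miR-33-5p (1.08); lower were miR-378b (-1.31), miR-676-3p (-1.20) and miR-1981-5p (-0.91). Of those 9, 4 had an estimate of the same sign on both diets, against 202 of all 351 tested miRNAs. Their high-fat values were 0.17 for miR-143-3p, -0.05 for miR-27b-3p, -0.84 for miR-574-5p and -0.005 for miR-1839-3p. Those of miR-27b-3p and miR-1839-3p thus lay near 0. Over all 351 miRNAs the differences on the 2 diets had Pearson's r of 0.045 and Spearman's rho of 0.16, across miRNAs, in groups that share no library. The number of calls on the high-fat diet was 63 without HF+CR 3, 27 without HF+Ex 1 and 0 with HF+CR and HF+Ex alone in the fit (50 at an unadjusted p under 0.05). These 2 libraries were also the shallowest of the series, at 2899939 and 2379753 implied reads.

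The difference between the diets was itself tested, as HF minus LF of the CR minus Ex value. It was called for 10 miRNAs (2.85%), 8 with a higher value on the high-fat diet (2.28%) and 2 with a lower one (0.570%). Among them were 4 of the 9 called on the low-fat diet: both miR-1948 arms, miR-671-5p and miR-1968-5p. The test holds the same LF+CR and LF+Ex libraries by which the 9 were chosen, which favours such an overlap. On the high-fat diet alone, limma put miR-671-5p at 0.26 (95% interval -0.07 to 0.58, adjusted p = 0.290). miR-1968-5p was at 0.44 there (95% interval -0.02 to 0.91, adjusted p = 0.215). miR-1948-3p was at 89.7, 86.7 and 58.2 RPM in HF+CR and at 42.3, 47.9 and 39.7 RPM in HF+Ex, so restricted livers lay above exercised ones there. That contrast was 0.82 (95% interval 0.29 to 1.35, adjusted p = 0.0714), and the difference between diets was 3.15 (SE 0.35, adjusted p = 5.74e-05). For miR-1948-5p the high-fat value was 1.26 (adjusted p = 0.0538) and the difference between diets 3.61 (SE 0.47, adjusted p = 0.000225).

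The difference between diets was also called for miR-148a-3p, miR-17-5p and miR-20a-5p, which had no call on the low-fat diet. miR-148a-3p was at 26814, 20543 and 23277 RPM in HF+CR and at 13651, 11113 and 10722 RPM in HF+Ex. Exercised livers thus held the higher levels on the low-fat diet, apart from LF+CR 3, and the lower levels on the high-fat diet, with a difference between diets of 1.70 (SE 0.30, adjusted p = 0.0040). miR-17-5p, a cell cycle miRNA, was at 76.9, 68.4 and 73.8 RPM in LF+CR and at 103, 107 and 97.9 RPM in LF+Ex, against 109 to 110 RPM in HF+CR and 47.9 to 73.2 RPM in HF+Ex. The groups did not overlap on either diet, with opposite order, and the difference between diets was 1.42 (SE 0.24, adjusted p = 0.0025). The choice of miR-17-5p by that difference in the same libraries favours such groups. On the low-fat diet 25.9% of all tested miRNAs did not overlap. miR-20a-5p from the same cluster overlapped on the low-fat diet, at 953, 753 and 808 RPM in LF+CR and at 1039, 921 and 1094 RPM in LF+Ex (-0.28), and lay at 1.16 on the high-fat diet. Its difference between diets was 1.44 (SE 0.27, adjusted p = 0.0049).

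For the other 5 low-fat calls the difference between diets did not pass: miR-143-3p -0.74 (adjusted p = 0.162), miR-27b-3p 0.59 (0.116), miR-148b-3p 1.16 (0.0885), miR-574-5p 0.44 (0.6998) and miR-1839-3p 1.09 (0.116). For miR-574-5p the restricted mean was below the exercised one on the high-fat diet too, 18.9 ± 6.55 RPM against 33.7 ± 6.42 RPM (-0.84, 95% interval -1.50 to -0.18, adjusted p = 0.131).

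**Figure D5:**
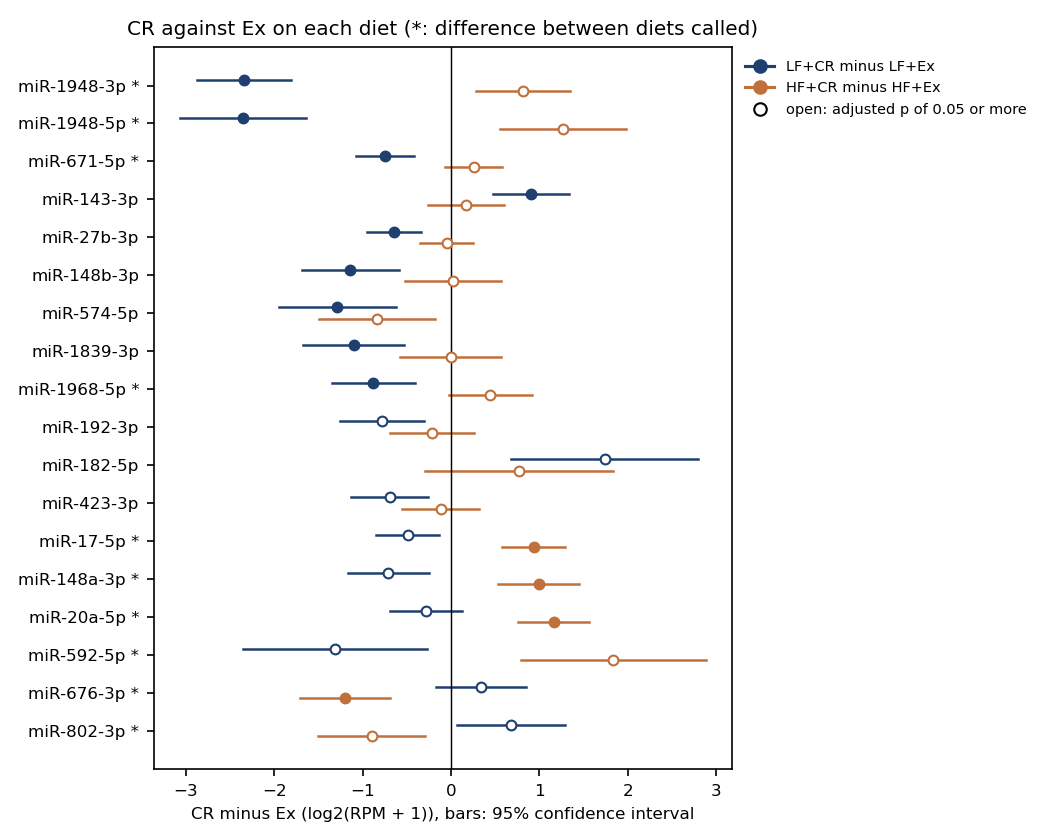
CR minus Ex (log2(RPM + 1)) on the low-fat diet (blue) and the high-fat diet (orange) for the 12 miRNAs of the level plot and for those called for a difference between the diets, marked by a star; bars are 95% confidence intervals and open circles an adjusted p of 0.05 or more. The blue and orange intervals of both miR-1948 arms lie on opposite sides of 0, while those of miR-574-5p lie on the same side.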

How the data were processed

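Small RNA from frozen mouse liver was sequenced after Trizol extraction and enrichment for small RNA, per the labels' protocols. The authors' deposited values are RPM per mature miRNA, per the file headers; the submitters' processing notes name mm10, and the coordinates given are of GRCm38. Aligner, counting tool and annotation release: not given in the sources used here. The titles gave each library's group and number.

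log2(RPM + 1) was fitted with limma 3.58.1 in R 4.3.3, all 18 libraries in 1 fit with 1 coefficient per group, an intensity trend and no robust weights. Tests were two-sided, with Benjamini-Hochberg adjustment over 351 miRNAs, at 0.05, for LF+CR minus LF+Ex, HF+CR minus HF+Ex and their difference; the LF comparisons are given beside them. All values were whole multiples of a single step per library (tolerance 0.001 reads), with a smallest listed value of 2 steps. Depth was inferred by taking 1 step as 1 read, which no source states; the implied reads were not accepted as recovered counts. The script was tested on simulated data. Figures used matplotlib 3.10.9 in Python 3.11.15.

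Named are all called miRNAs, those with the next smallest p to make 12, the 6 most abundant, and list members by counts and examples. The comparison, members and 26 lists were chosen with earlier results of these data known. Alternatives were size factors, a filter at 50 RPM or none, a pseudocount of 5, only the compared groups, no trend, the replicate number as a block, and each library left out. Chosen after seeing the data were voom weights on implied reads and identical miRNAs counted once. A setting that leaves 2 libraries in a group takes their spread from all groups.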

Additional observations from a re-analysis of the deposited data

Results flagged for a closer look

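For 10 miRNAs the contrast of calorie restriction with exercise differed between the diets by limma's test of the difference itself (HF minus LF, log2(RPM + 1), adjusted p under 0.05). It was 3.15 for miR-1948-3p, 3.61 for miR-1948-5p, 1.42 for miR-17-5p, 1.70 for miR-148a-3p, 1.44 for miR-20a-5p, 1.002 for miR-671-5p, 3.14 for miR-592-5p, 1.32 for miR-1968-5p, -1.54 for miR-676-3p and -1.58 for miR-802-3p. Each of the first 6 stayed called with any 1 of the 12 libraries left out.

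Of the 10, 3 have not been described above. miR-592-5p was at 16.9, 16.5 and 13.7 RPM in LF+CR and at 46.5, 45.02 and 30.9 RPM in LF+Ex. On the high-fat diet it was at 34.7, 25.6 and 26.4 RPM in HF+CR and at 16.7, 4.68 and 4.68 RPM in HF+Ex. Its call held in 7 of the 12 omissions and was lost without LF+Ex 1 (adjusted p = 0.0584), LF+Ex 2 (0.0508), HF+CR 1 (0.0513), HF+Ex 2 (0.0610) or HF+Ex 3 (0.0547). miR-676-3p was at 61.3 to 98.0 RPM in LF+CR, 47.6 to 75.3 RPM in LF+Ex, 68.6 to 90.6 RPM in HF+CR and 162 to 227 RPM in HF+Ex. The groups overlapped on the low-fat diet (0.34) and not on the high-fat diet (-1.20), and the call was lost without LF+CR 2 (0.0586), LF+Ex 1 (0.0668), LF+Ex 2 (0.0502) or HF+CR 2 (0.0618). miR-802-3p, from a hairpin raised in obese liver, was at 267 to 308 RPM in LF+CR, 131 to 246 RPM in LF+Ex, 97.5 to 157 RPM in HF+CR and 207 to 252 RPM in HF+Ex. Its call held in 3 of the 12 omissions, those of LF+CR 3, LF+Ex 3 and HF+CR 3, and was lost in the other 9 (adjusted p 0.0610 to 0.132).

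miR-1968-5p kept its call in 5 of the 12 omissions and lost it without LF+CR 2 (0.0586), LF+Ex 1 (0.0668), LF+Ex 2 (0.0597), HF+CR 1 (0.0584), HF+CR 2 (0.0618), HF+Ex 2 (0.0722) or HF+Ex 3 (0.0547). After rescaling by size factors the calls of miR-671-5p (0.90, adjusted p = 0.0635) and miR-1968-5p (1.25, adjusted p = 0.0857) were lost.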

How the results depend on the processing

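Between LF+CR and LF+Ex 9 miRNAs were called; the count was 3 with no filter (758 tested), 5 with a filter of 50 RPM, where 4 of the 9 were not tested, 6 with a pseudocount of 5, 7 with size factors, 8 with voom weights, and 9 without the trend or with identical miRNAs once. With a library left out it ranged from 2 to 13: 2 without LF+CR 1, 3 without LF+CR 2, 13 without LF+CR 3, 3 without LF+Ex 1, 7 without LF+Ex 2 and 2 without LF+Ex 3. For HF+CR minus HF+Ex, 8 were called, 13 with no filter, 12 with a pseudocount of 5 or voom weights, 0 with the compared groups alone in the limma fit (50 at an unadjusted p under 0.05), and 5 to 63 with a library left out. For the difference between the diets, 10 were called, 15 with voom weights, and 6 to 25 with a library left out (18 without LF+CR 3, 25 without HF+CR 3, 16 without HF+Ex 1, 6 without LF+Ex 1 or LF+Ex 2). Among the single miRNAs recomputed under every setting, the sign turned after rescaling for miR-145a-5p (0.011), miR-143-5p (0.14) and miR-29b-3p (0.15). With libraries left out the range crossed 0 for miR-194-5p (-0.043 to 0.085), miR-143-5p (-0.35 to 0.34) and miR-29b-3p (-0.13 to 0.075). The causes were not tested. Among the single miRNAs, 810 recomputed values kept their sign and their side of the threshold, 84 fell below it, 11 rose past it and 10 changed sign. Most of these were uncalled from the start, and staying uncalled counts as kept. The low-fat calls held in 15 of 15 alternatives for miR-1948-3p and 14 of 14 for miR-1948-5p. They held in 10 of 15 for miR-143-3p, 9 of 15 for miR-671-5p and miR-148b-3p, and 8 of 15 for miR-27b-3p. For miR-574-5p it was 6 of 14, for miR-1839-3p 4 of 14 and for miR-1968-5p 3 of 14. Same-numbered LF+CR and LF+Ex libraries had correlations of 0.334, 0.158 and 0.049 of their deviations, and differently numbered ones of -0.333 to 0.201. LF+CR 1 and LF+CR 3 correlated best with the LF+Ex library of their own number, and LF+CR 2 with LF+Ex 3 (0.201). These values do not settle whether replicate numbers pair the libraries. With the replicate number as a block, 8, 6 and 10 miRNAs were called in the 3 comparisons, and the low-fat calls of miR-1839-3p (adjusted p = 0.0628) and miR-1968-5p (0.0597) were lost. A count test with edgeR was not run, since the implied reads were not accepted as recovered counts. Depth limits the rare arms most: miR-1839-3p rested on 9 to 15 implied reads in LF+CR, and reads without molecular identifiers are not independent molecules.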
